A study of Mus musculus with 14 samples.

Results

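Left ventricles (LV) of mice labelled CXCR5-/- were compared with those of wild type (WT) mice after aortic banding (AB). The comparison used the 4 CXCR5-/- AB and 4 WT AB arrays of the 14 arrays in the series. All 19937 genes with a probe set of a single symbol were included, each by its brightest probe set, and the 1165 genes on chromosome 9, the chromosome of Cxcr5, were kept apart from the other 18772 (82 of which had no chromosome in the table used). All mice were males on a C57BL/6 background, and no age was stated. WT mice came from a commercial C57BL/6 stock. The CXCR5-/- line carries a Cxcr5 allele in which a neomycin resistance gene stands in place of the coding region. The allele was targeted in embryonic stem cells of another inbred strain and crossed back to C57BL/6, and every cell of the body carries it. AB narrowed the ascending aorta with a ligature, and LV tissue was taken 3 weeks later. The remaining 3 CXCR5-/- and 3 WT hearts had a Sham operation and served to show which differences between genotypes were also present without the constriction. Each array held RNA of 1 mouse.

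CXCR5 is the receptor of the chemokine CXCL13, and it is best known for guiding B cells and follicular helper T cells into the follicles of lymphoid organs. The heart holds few such cells. Pressure overload makes the LV hypertrophic, with return of a fetal gene program in cardiomyocytes and deposition of extracellular matrix (ECM) by fibroblasts. In a line made from stem cells of another strain, DNA of that strain can remain around the targeted gene after backcrossing, so neighbouring genes travel with the allele. In such a line the loss of the receptor and the flanking DNA cannot be told apart, whether that DNA alters the level of a transcript or the match between a transcript and the probes of the array.

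The values are log2 expression, and a difference of 1 is a 2-fold difference. Array medians lay between 5.19 and 5.30. Ventricular markers were high on all AB arrays. Myl2, the ventricular light chain, lay at 12.35 to 12.66 and Tnni3, cardiac troponin I, at 11.16 to 11.58, while the atrial light chain gene Myl7 lay at 5.65 to 7.49 and Bmp10, another atrial gene, was at 6.78 on CXCR5-/- AB replicate 4 and at 3.06 to 3.32 on the other AB arrays. The liver gene Alb varied from 4.43 to 9.73 among the CXCR5-/- AB hearts and from 5.01 to 7.98 among the WT AB hearts. On the Sham arrays Myl7 lay at 6.93 to 9.68 with the CXCR5-/- label and at 6.10 to 9.09 in WT. Alb lay there at 3.98 to 5.17 with the CXCR5-/- label and at 4.39 to 9.14 in WT. In tissue RNA of this kind, fewer cells of a type and less RNA per cell cannot be told apart. Replicates were separate mice.

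The deleted gene did not read as absent. Cxcr5 (probe set 10592888) lay at 4.43, 4.47, 3.97 and 4.21 in the 4 hearts labelled CXCR5-/- AB and at 3.30, 3.03, 3.30 and 3.18 in the WT AB hearts. Every heart labelled CXCR5-/- was above every WT heart, by a mean of 1.07 (SE 0.11, adjusted p = 0.000127). After Sham the difference was 0.78, with the labelled CXCR5-/- arrays at 3.85 to 4.11 and the WT arrays at 3.23 to 3.24. No source used here says which exons the probes read, so this probe set did not check the label, and the hearts are called by their labels. Both means were low for this array, where weak signal limits the size of a difference.

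Few genes separated the genotypes after AB, and most of them lie on chromosome 9. By limma 9 of 19937 genes passed (0.0451%), 5 higher (0.0251%) and 4 lower (0.0201%) in hearts labelled CXCR5-/-. Of these, 7 lie on chromosome 9, which is 0.601% of its genes, and 2 lie elsewhere, both on chromosome 1, which is 0.0107% of the other genes. Nxpe4 was 3.96-fold and Pts 1.98-fold lower, and Fam81a, Cxcr5 and Tmprss13 were 2.10-fold, 2.09-fold and 1.87-fold higher. Stk17b, Nxpe2, Angptl1 and Ppcdc differed by 1.67-fold or less. The folds of Nxpe4 and Cxcr5 are set against dim values, means of 4.32 with the CXCR5-/- label for Nxpe4 and 3.20 in WT for Cxcr5, so weak signal limits both and no order of size is drawn from them. Nxpe4, Fam81a and Tmprss13 passed under all 25 alternatives that were run, and Cxcr5 under all that kept its dim probe set.

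The promoters of 3 of these genes are shown because they mark a gene that sorted the arrays by labelled genotype (Nxpe4), its neighbour that moved the same way (Nxpe2) and a gene that rose far from Cxcr5 (Fam81a). Nxpe4 and Nxpe2 stand next to each other in the order of measured genes, as a pair 44 to 45 places after Cxcr5, and Fam81a stands 285 places after it. Each window runs from 250 bases before to 50 bases after the start of the gene in RefSeq (GRCm38.p6), printed 5′ to 3′ on the strand of the gene, at chr9:48361791-48362090 (+ strand) for Nxpe4, chr9:48340849-48341148 (− strand) for Nxpe2 and chr9:70141508-70141807 (− strand) for Fam81a. Capitals mark matches to TATAAA or GGGCGG on either strand.
Nxpe4: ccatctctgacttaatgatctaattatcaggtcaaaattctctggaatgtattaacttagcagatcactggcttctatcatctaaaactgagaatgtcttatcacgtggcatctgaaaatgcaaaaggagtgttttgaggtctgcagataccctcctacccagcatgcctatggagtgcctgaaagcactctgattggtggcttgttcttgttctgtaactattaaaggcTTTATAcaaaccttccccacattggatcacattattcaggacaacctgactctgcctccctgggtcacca
Nxpe2: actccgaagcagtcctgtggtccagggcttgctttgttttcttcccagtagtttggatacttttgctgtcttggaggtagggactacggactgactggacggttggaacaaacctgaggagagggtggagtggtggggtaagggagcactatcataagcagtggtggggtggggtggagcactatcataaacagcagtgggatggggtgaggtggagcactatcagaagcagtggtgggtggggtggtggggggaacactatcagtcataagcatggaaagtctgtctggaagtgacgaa
Fam81a: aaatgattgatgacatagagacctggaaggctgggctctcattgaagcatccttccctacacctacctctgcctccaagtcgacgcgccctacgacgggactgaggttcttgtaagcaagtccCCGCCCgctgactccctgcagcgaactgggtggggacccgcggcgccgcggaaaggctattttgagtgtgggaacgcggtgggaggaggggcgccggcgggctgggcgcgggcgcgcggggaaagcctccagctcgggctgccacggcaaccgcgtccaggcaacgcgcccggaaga
The window of Nxpe4 holds TATAAA, read as TTTATA on the printed strand, 20 bases before the start, and that of Nxpe2 holds neither motif. Fam81a holds GGGCGG, read as CCGCCC, 127 bases before the start. G and C made up 42.3%, 53.3% and 65.7% of the windows of Nxpe4, Nxpe2 and Fam81a, against a median of 52.7% over 32851 RefSeq promoters. Of the 9 genes that passed, 7 had a promoter in the table. TATAAA was present in 1 of the 7 (Nxpe4) and in 13.6% of all 32851 promoters, and GGGCGG in 4 (Fam81a, Ppcdc, Pts and Stk17b) and in 35.7%.

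Nxpe4 and Nxpe2 encode members of the neurexophilin and PC-esterase domain family. Nxpe4 (probe set 10585068) lay at 4.45, 4.22, 4.34 and 4.26 in hearts labelled CXCR5-/- AB and at 6.20, 6.33, 6.29 and 6.38 in WT AB hearts. The groups were far apart relative to the spread within them (SD 0.10 and 0.08, n = 4 each), and the difference was -1.98 (SE 0.09, adjusted p = 1.26e-09). The Sham hearts split in the same way, at 3.85 to 4.13 with the CXCR5-/- label and at 6.20 to 6.45 in WT, so that this gene sorted all 14 arrays by their labelled genotype. Nxpe2 lay at 4.86 to 5.02 in hearts labelled CXCR5-/- AB and at 5.34 to 5.67 in WT AB hearts, without overlap (-0.53, SE 0.09, adjusted p = 0.0279). Its Sham difference of -0.37 was in the same direction. The call of Nxpe2 was weaker than that of its neighbour. With the replicate number as a block over the 8 AB arrays its adjusted p was 0.137, and it also ended without CXCR5-/- AB replicate 1, 2 or 3 or WT AB replicate 2 or 3 (adjusted p up to 0.124). The call of Nxpe2 was also lost with the AB arrays alone (adjusted p = 0.177), with all probe sets fitted together (adjusted p = 0.0584) and by significance analysis of microarrays (q = 0.0667).

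Pts, which encodes 6-pyruvoyltetrahydropterin synthase of tetrahydrobiopterin synthesis, was the other gene that fell on chromosome 9. It lay at 6.62, 6.72, 6.32 and 6.36 in hearts labelled CXCR5-/- AB and at 7.84, 7.63, 7.25 and 7.23 in WT AB hearts. The groups did not overlap, although both were spread (SD 0.19 and 0.30), and the difference was -0.98 (SE 0.14, adjusted p = 0.00935). After Sham it was -1.16. The call of Pts ended without CXCR5-/- AB replicate 3 (adjusted p = 0.055), with the AB arrays alone (adjusted p = 0.111) and with all probe sets fitted together (adjusted p = 0.0584).

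Fam81a lay at 7.50, 7.64, 7.56 and 7.71 in hearts labelled CXCR5-/- AB and at 6.39, 6.68, 6.44 and 6.62 in WT AB hearts. Every labelled heart was above every WT heart (1.07, SE 0.11, adjusted p = 0.000127), as after Sham, where the difference was 0.79. Tmprss13, a membrane-bound serine protease gene, lay at 5.70, 5.54, 5.34 and 5.79 in hearts labelled CXCR5-/- AB and at 4.74, 4.65, 4.65 and 4.71 in WT AB hearts (0.91, SE 0.12, adjusted p = 0.00506). Its Sham difference was 1.52. The difference between the AB and Sham differences of Tmprss13, -0.61 (SE 0.19), did not pass (adjusted p = 0.9998). Ppcdc encodes a decarboxylase of coenzyme A synthesis. After AB its lowest value with the CXCR5-/- label was 6.85, and WT hearts lay at 6.37 to 6.48, without overlap (0.47, SE 0.08, adjusted p = 0.038). With the replicate block over the AB arrays the adjusted p of Ppcdc was 0.137, and its call ended without CXCR5-/- AB replicate 1, 2 or 3, any 1 of the 4 WT AB arrays or WT Sham replicate 2 (adjusted p up to 0.124). It was also lost with the AB arrays alone (adjusted p = 0.14), array weights (adjusted p = 0.0578), equal array medians (adjusted p = 0.0687) and all probe sets fitted together (adjusted p = 0.0584).

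The 2 genes off chromosome 9 had differences near 0 after Sham. Stk17b encodes a kinase of the death-associated family, also called DRAK2, that is abundant in lymphocytes. It lay at 8.17, 8.36, 8.31 and 7.95 in hearts labelled CXCR5-/- AB and at 7.36, 7.41, 7.71 and 7.35 in WT AB hearts. The groups did not overlap, and the difference was 0.74 (SE 0.12, adjusted p = 0.0408), beside 0.05 after Sham. Angptl1, a secreted angiopoietin-like protein gene, lay at 4.84 to 5.18 with the CXCR5-/- label and at 5.42 to 5.59 in WT after AB (-0.50, SE 0.09, adjusted p = 0.0408), beside 0.08 after Sham. The differences between AB and Sham, 0.68 (SE 0.19) for Stk17b and -0.59 (SE 0.13) for Angptl1, had unadjusted p of 0.00228 and 0.000328. They did not pass over all genes (adjusted p = 0.9998 for both). Both genes were picked by their AB difference, which is part of these values. Neither gene was stable. Leaving out 1 array at a time ended the call of Stk17b in 9 of 14 cases (without CXCR5-/- AB replicates 1 to 3, WT AB replicate 1, 2 or 4, CXCR5-/- Sham replicate 2 or 3 or WT Sham replicate 3) and that of Angptl1 in 13 of 14 (all but CXCR5-/- AB replicate 4), with adjusted p up to 0.158 and 0.193. The call of Stk17b also ended with the AB arrays alone (adjusted p = 0.132), array weights (adjusted p = 0.0578), quantile normalization (adjusted p = 0.0551) and all probe sets fitted together (adjusted p = 0.159). That of Angptl1 ended with the same alternatives (adjusted p = 0.216, 0.0578, 0.0708 and 0.0934), with the replicate block over the AB arrays (adjusted p = 0.135), with equal array medians (adjusted p = 0.0815) and by significance analysis of microarrays (q = 0.0667).

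**Figure D1:**
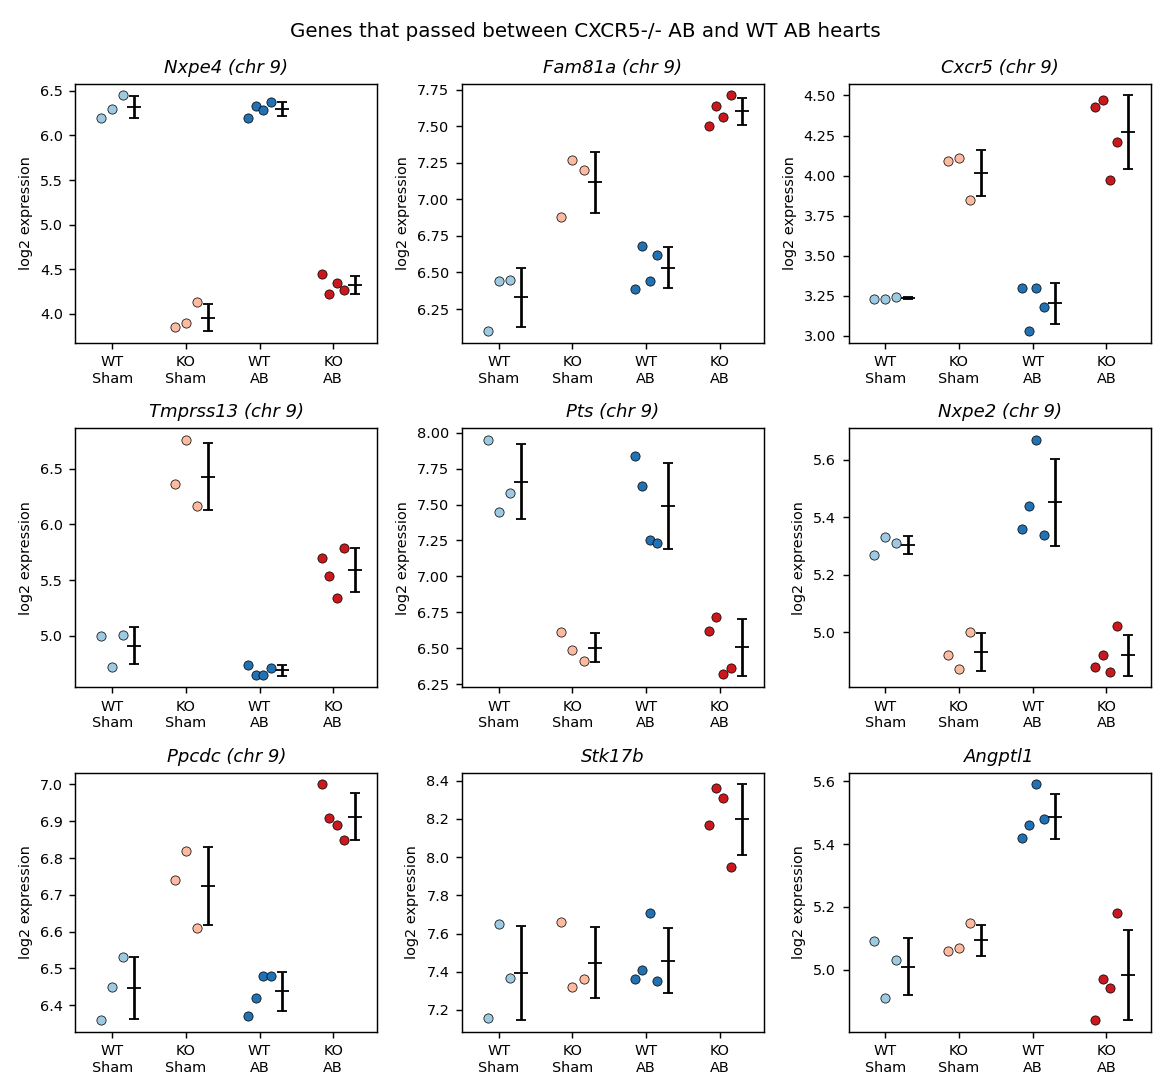
Log2 expression (y axis) of the 9 genes that passed between labelled CXCR5-/- AB and WT AB hearts, by group (x axis, KO for the CXCR5-/- label). Each point is an array, and bars give the mean and SD of a group (3 Sham or 4 AB arrays). For Nxpe4 the arrays with the CXCR5-/- label lie at 3.85 to 4.45 and the WT arrays at 6.20 to 6.45 after either operation, while for Stk17b only the labelled CXCR5-/- AB arrays lie apart, at 7.95 to 8.36.

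Chromosome 9 also stood out below the threshold. At an unadjusted p under 0.05, 105 of its 1165 genes (9.01%) differed after AB, 47 higher (4.03%) and 58 lower (4.98%), against 1080 of the 18772 other genes (5.75%, 3.37% higher and 2.38% lower) and 5.94% of all genes. The share on the other autosomes ran from 3.74% on chromosome 15 to 7.42% on chromosome 3, and it was 8.25% on the X chromosome. Groups did not overlap in 67 genes of chromosome 9 (5.75%), against 2.96% of the other genes and 3.12% of all.

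Along the chromosome the share was highest on both sides of Cxcr5. Of the 50 genes before it in gene order, 10 (20%) had an unadjusted p under 0.05, as did 12 of 51 (23.5%) from Cxcr5 itself to the 50th gene after it and 8 of the next 50 (16%). Beyond that the share after Cxcr5 was 5% at 101 to 200 genes, 12.5% at 201 to 400 and 6.34% farther on. Before Cxcr5 it was 6% at 51 to 100 genes, 10% at 101 to 200 and 4.5% at 201 to 400. The shares did not fall evenly with distance, and Fam81a lay among the genes 201 to 400 places away. How far DNA of the stem cell strain reached in these mice was not tested.

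**Figure D2:**
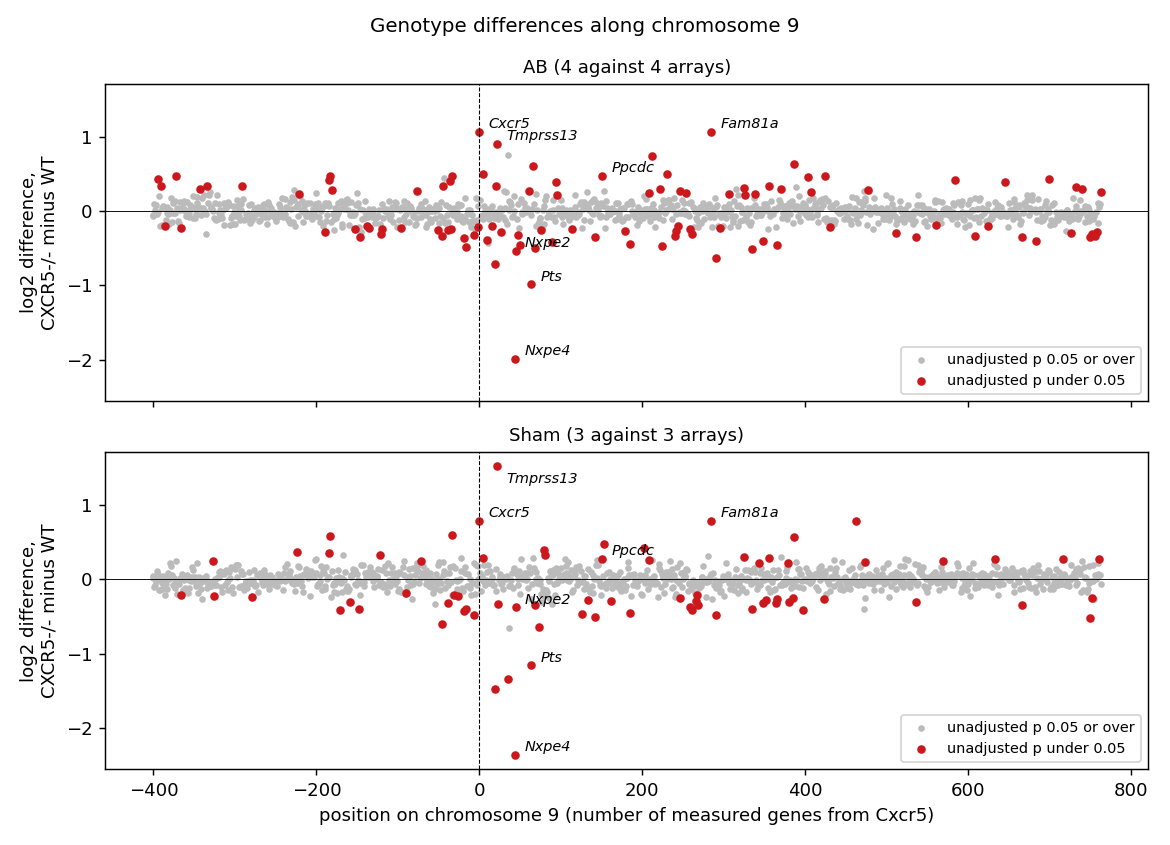
Difference between labelled CXCR5-/- and WT hearts (y axis, log2) for the 1165 measured genes of chromosome 9 in their order along it (x axis, number of measured genes from Cxcr5, dashed line at Cxcr5), after AB (top) and after Sham (bottom). Red points had an unadjusted p under 0.05, and the genes that passed after AB are named. Nxpe4, Pts, Cxcr5, Tmprss13 and Fam81a keep their direction in both panels.

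Not all close neighbours of Cxcr5 differed. Among the 10 measured genes on either side of it, Ift46, a gene of intraflagellar transport 5 places after Cxcr5, lay at 7.76, 8.01, 7.86 and 7.90 with the CXCR5-/- label and at 7.51, 7.56, 7.32 and 7.13 in WT after AB. Its groups did not overlap (0.50, SE 0.10), but it did not pass (adjusted p = 0.121). Atp5l, a subunit gene of mitochondrial ATP synthase, differed by -0.39, Trappc4, of vesicle transport, by -0.33 and Upk2 by -0.21, each at an unadjusted p under 0.05 and none past the adjusted threshold. After Sham, Atp5l, Trappc4 and Upk2 differed by -0.02, -0.48 and 0.01. Atp5l was read by the brightest of its 5 probe sets. Ddx6, the gene next after Cxcr5, differed by 0.16 (SE 0.11) and Bcl9l, the gene before it, by 0.07 (SE 0.09). The T cell receptor complex genes Cd3g, Cd3d and Cd3e, which lie 11 to 13 places after Cxcr5, differed by -0.43 (SE 0.26), -0.11 (SE 0.11) and -0.04 (SE 0.15).

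Genes of chromosome 9 that differed after AB mostly differed in the same direction after Sham, in other mice. Of the 105 genes at an unadjusted p under 0.05, 83 (79%) had a Sham difference of the same sign, and 35 (33.3%) also had an unadjusted p under 0.05 after Sham. On the other chromosomes these were 648 of 1080 (60%) and 42 of 1080 (3.89%). Over all genes of chromosome 9 the signs matched in 56.7%, and over all other genes in 52.1%. After Sham, 2.38% of all genes, 6.44% of those on chromosome 9 and 2.13% of the others had an unadjusted p under 0.05, and the 8 genes that passed by limma (0.0401%) all lie on chromosome 9 (0.687% of its genes). No gene of chromosome 9 that reached an unadjusted p under 0.05 after both operations turned direction.

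Several of these shared differences are at genes of known function, named here after their values were seen. Scn4b, an auxiliary subunit of cardiac sodium channels 19 places after Cxcr5, lay at 4.52 to 4.92 with the CXCR5-/- label and at 5.08 to 5.85 in WT after AB (-0.72, SE 0.14, adjusted p = 0.121). Its Sham difference was -1.47 and passed by limma (adjusted p = 0.000557). Sorl1, a sorting receptor gene 34 places before Cxcr5, lay at 7.24 to 7.41 and 6.70 to 7.09 (0.47 after AB and 0.60 after Sham). Nt5e, which encodes CD73, the surface enzyme that makes adenosine from AMP, lay at 7.25 to 7.55 and 6.59 to 7.05 (0.63 and 0.57). Klhl31, a kelch family gene of muscle, lay at 9.55 to 9.73 and 9.99 to 10.23 (-0.51 and -0.40), and Mto1, of mitochondrial tRNA modification, at 6.60 to 6.89 and 7.06 to 7.19 (-0.41 and -0.32). The AB groups did not overlap in any of these 5 genes, and none passed by limma after AB (adjusted p = 0.0866 to 0.144). Significance analysis of microarrays, at a q under 0.05, called 12 genes (0.0602%), among them Nt5e and Klhl31. Sdhd, the membrane anchor of succinate dehydrogenase, lay at 9.93 to 10.49 and 10.37 to 10.86, with overlap (-0.50 and -0.35).

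A probe set of Hspa8, the constitutive heat shock protein 70 gene 44 places before Cxcr5, gave a large difference that the gene's brightest probe set did not show. Probe set 10584572 lay at 10.44, 10.66, 10.10 and 10.29 with the CXCR5-/- label and at 11.92, 11.91, 12.02 and 12.06 in WT after AB. The groups did not overlap, and the differences were -1.60 after AB and -1.48 after Sham. Probe set 10528021, the brightest and the one that stood for Hspa8, differed by -0.10, and probe set 10368025 by -0.27. The 3 probe sets disagree, so no direction is given for Hspa8.

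**Figure D3:**
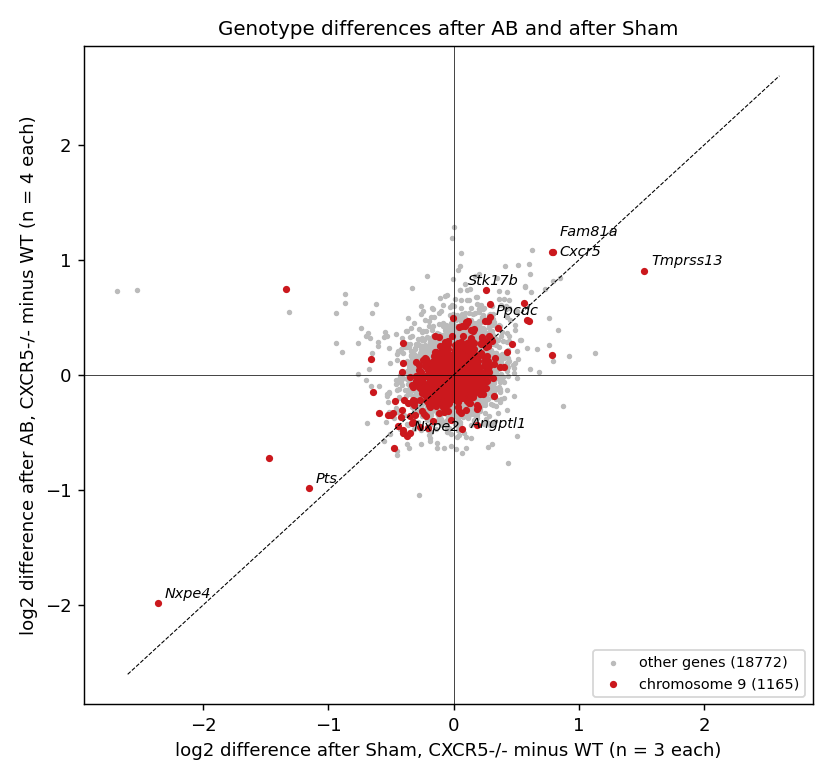
Difference between labelled CXCR5-/- and WT hearts after AB (y axis, log2, 4 against 4 arrays) against that after Sham (x axis, log2, 3 against 3 arrays), 1 point per gene, with chromosome 9 in red and a dashed line where both are equal. The genes that passed after AB are named. Nxpe4, Pts and Tmprss13 lie far from 0 on both axes, with Tmprss13 below the dashed line (1.52 after Sham and 0.91 after AB). Stk17b and Angptl1 lie near 0 on the x axis.

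None of the 15 genes with the next smallest p passed. Edn1, which encodes the vasoconstrictor endothelin 1, lay at 7.20, 7.21, 7.31 and 6.58 in hearts labelled CXCR5-/- AB and at 6.25, 6.47, 6.42 and 6.38 in WT AB hearts. All 4 labelled hearts were above the WT hearts, with replicate 4 close to them (0.70, SE 0.13, adjusted p = 0.0866). Bmp2, a growth factor of the TGF beta family, lay at 4.41, 4.53, 4.32 and 5.01 against 5.21, 5.15, 5.23 and 5.24, again with replicate 4 nearest to WT (-0.64, SE 0.12, adjusted p = 0.104). Edn1 and Bmp2 differed by -0.05 and 0.02 after Sham. Arrdc3, an arrestin family gene, lay at 8.29 to 9.02 and 7.61 to 8.15 (0.86, SE 0.16, adjusted p = 0.0866). Gadd45b, a stress-induced gene, lay at 8.21 to 8.66 and 7.34 to 8.08 (0.74, SE 0.15, adjusted p = 0.121). Sprr1a, a small proline-rich protein gene induced in overloaded cardiomyocytes, lay at 8.33, 8.21, 7.72 and 7.33 against 7.60, 6.33, 6.70 and 6.21, with overlap (1.19, SE 0.25, adjusted p = 0.141).

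Whether some of these genes passed depended on the use of the replicate number as a block and on single arrays. What arrays of the same number share is not stated. With the replicate number as a block over the AB arrays, Arrdc3 (adjusted p = 0.006), Sprr1a (adjusted p = 0.0349) and Gadd45b (adjusted p = 0.039) passed, as did Depp1. With the number as a random block over all arrays, Arrdc3, Edn1 and Klhl31 (adjusted p = 0.0412 for each) and Bmp2 (adjusted p = 0.0467) passed. Without CXCR5-/- AB replicate 4, 34 genes passed in place of 9, 28 of them higher, and 23 lie off chromosome 9. Among these were Edn1 (adjusted p = 0.000623), Bmp2 (adjusted p = 0.00141), Sprr1a and the matricellular genes Ccn1 (adjusted p = 0.0431) and Ccn2 (adjusted p = 0.0442). On that array Bmp10 was also raised and the mesothelial gene Msln was at 5.01, beside 5.91 to 6.06 on the other labelled CXCR5-/- AB arrays, and the part of either in these counts was not tested.

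Among the others of these 15, G0s2, an inhibitor of fat breakdown, lay at 6.89 to 7.35 with the CXCR5-/- label and at 7.56 to 8.04 in WT after AB (-0.59, SE 0.12, adjusted p = 0.143). Cyb561, a membrane cytochrome gene, was at 7.59 to 8.03 and 7.01 to 7.46 (0.57, SE 0.12), Entpd4, a nucleotidase gene of the Golgi, at 8.59 to 9.03 and 8.13 to 8.42 (0.49, SE 0.10) and Efcab7 at 4.66 to 4.93 and 3.90 to 4.50 (0.60, SE 0.12). None of these groups overlapped. After Sham, G0s2, Cyb561, Entpd4 and Efcab7 differed by -0.13, 0.21, 0.31 and 0.42, and none passed. Calml4 and Pdzd3, both on chromosome 9, differed by 0.74 and -0.48. Of genes without overlap, Slc10a6, a steroid sulfate transporter gene, and the water channel gene Aqp8 had some of the largest differences, 0.95 (SE 0.23) and -0.70 (SE 0.17). Neither passed (adjusted p = 0.194 for both). Slc10a6 and Aqp8 differed by 0.51 and -0.45 after Sham.

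Genes of 29 lists were then read by function, cell type or pathway. No list gene except Cxcr5 passed by limma after AB or was called by significance analysis of microarrays. Each list is therefore described by its median, beside -0.002 for all genes. The share of its genes above 0 is read beside 49.3% of all genes. Its counts at an unadjusted p under 0.05 are read beside 3.41% of all genes higher and 2.53% lower.

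**Figure D4:**
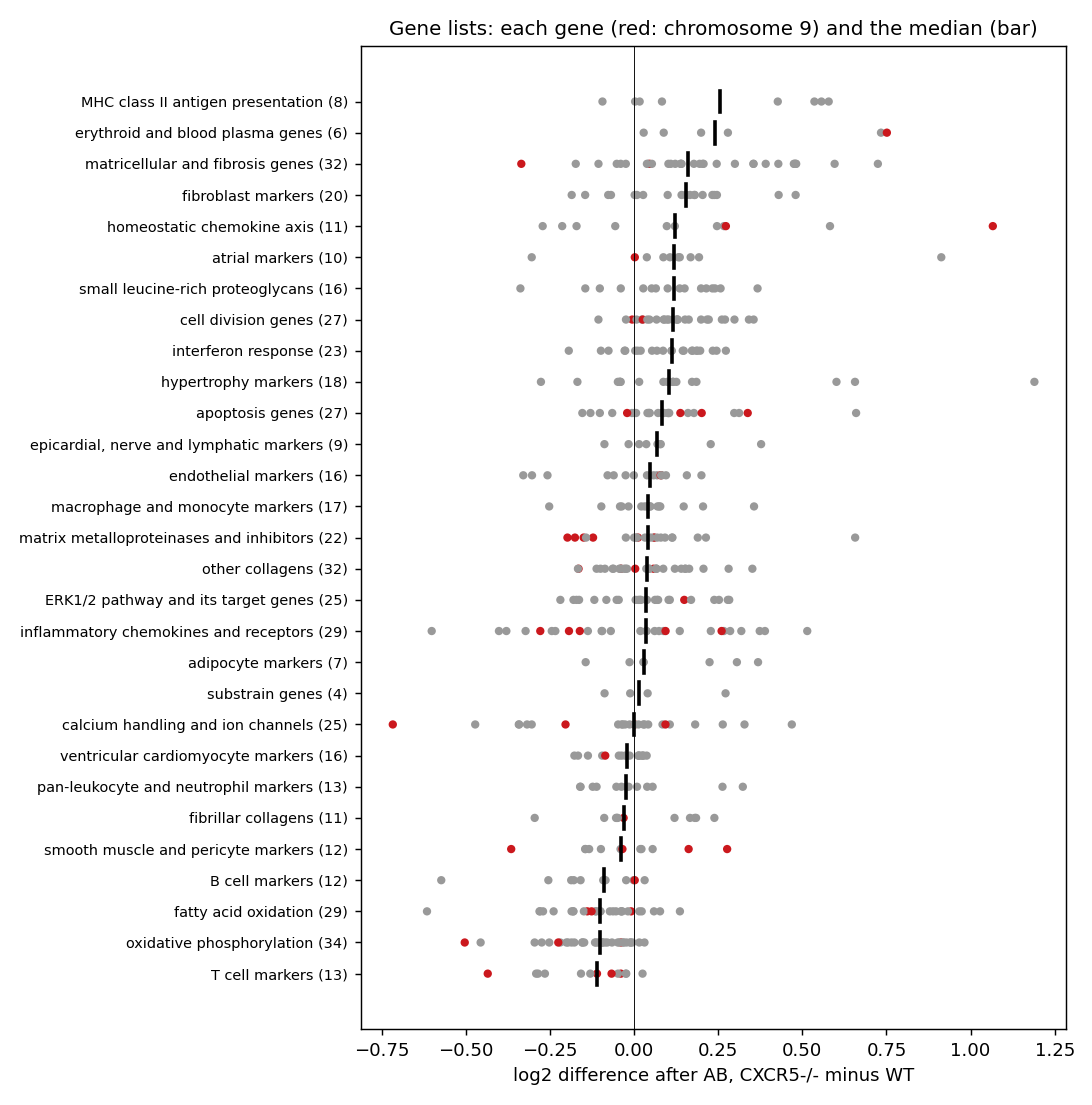
Difference between labelled CXCR5-/- AB and WT AB hearts (x axis, log2) of each gene of 29 lists (y axis, number of measured genes in brackets), 1 point per gene, with genes of chromosome 9 in red and a black bar at the median of each list. Medians run from -0.110 for T cell markers to 0.255 for genes of MHC class II antigen presentation.

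Genes of MHC class II antigen presentation had the highest median of the lists, 0.255, and 7 of 8 were above 0. Cd74, the invariant chain, lay at 9.21, 9.51, 9.45 and 9.32 in hearts labelled CXCR5-/- AB and at 8.53, 8.60, 9.04 and 9.03 in WT AB hearts. The groups did not overlap (0.58, SE 0.13, adjusted p = 0.15). H2-Aa and H2-Ab1, the chains of the class II molecule I-A, lay at 9.22 to 9.84 and 8.77 to 9.01 (0.56, SE 0.14, adjusted p = 0.238) and at 9.60 to 10.03 and 8.92 to 9.34 (0.54, SE 0.13, adjusted p = 0.221). H2-Eb1 lay at 8.54 to 8.93 and 8.16 to 8.49 (0.43, SE 0.12, adjusted p = 0.349). These 4 genes were the ones of the list at an unadjusted p under 0.05, and none of their groups overlapped, which held for 1.63% of all genes in this direction and 1.49% in the other. Ciita, which encodes the master regulator of class II genes, was at 4.68 to 4.90 and 4.64 to 4.87 (0.00, SE 0.09), and H2-DMa, which loads peptide, differed by 0.02 (SE 0.13).

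The summed level of the class II list was 11.31 to 11.70 in hearts labelled CXCR5-/- AB, 10.78 to 11.06 in WT AB hearts and 10.28 to 10.79 in all Sham hearts. After Sham the 4 genes differed by -0.10 to -0.17, and the differences between AB and Sham (0.75, SE 0.20, for Cd74) did not pass (adjusted p = 0.9998). Summed levels of markers of cells that can carry class II overlapped between the AB groups. The summed level of 17 macrophage and monocyte markers was 11.90 to 12.25 with the CXCR5-/- label and 11.85 to 12.08 in WT, and 12 of the 17 were above 0 (median 0.042). That of 12 B cell markers was 8.17 to 8.31 and 8.18 to 8.65 (median -0.090). That of 13 pan-leukocyte and neutrophil markers was 10.21 to 10.57 and 10.10 to 10.50 (median -0.023). Their leukocyte marker Cd53 did not overlap, at 7.14 to 7.41 with the CXCR5-/- label and 6.59 to 7.10 in WT (0.32, SE 0.11, unadjusted p = 0.00865). Ptprc, which encodes CD45, overlapped and differed by 0.04 (SE 0.10). The part of these cells in the class II values was not tested.

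**Figure D5:**
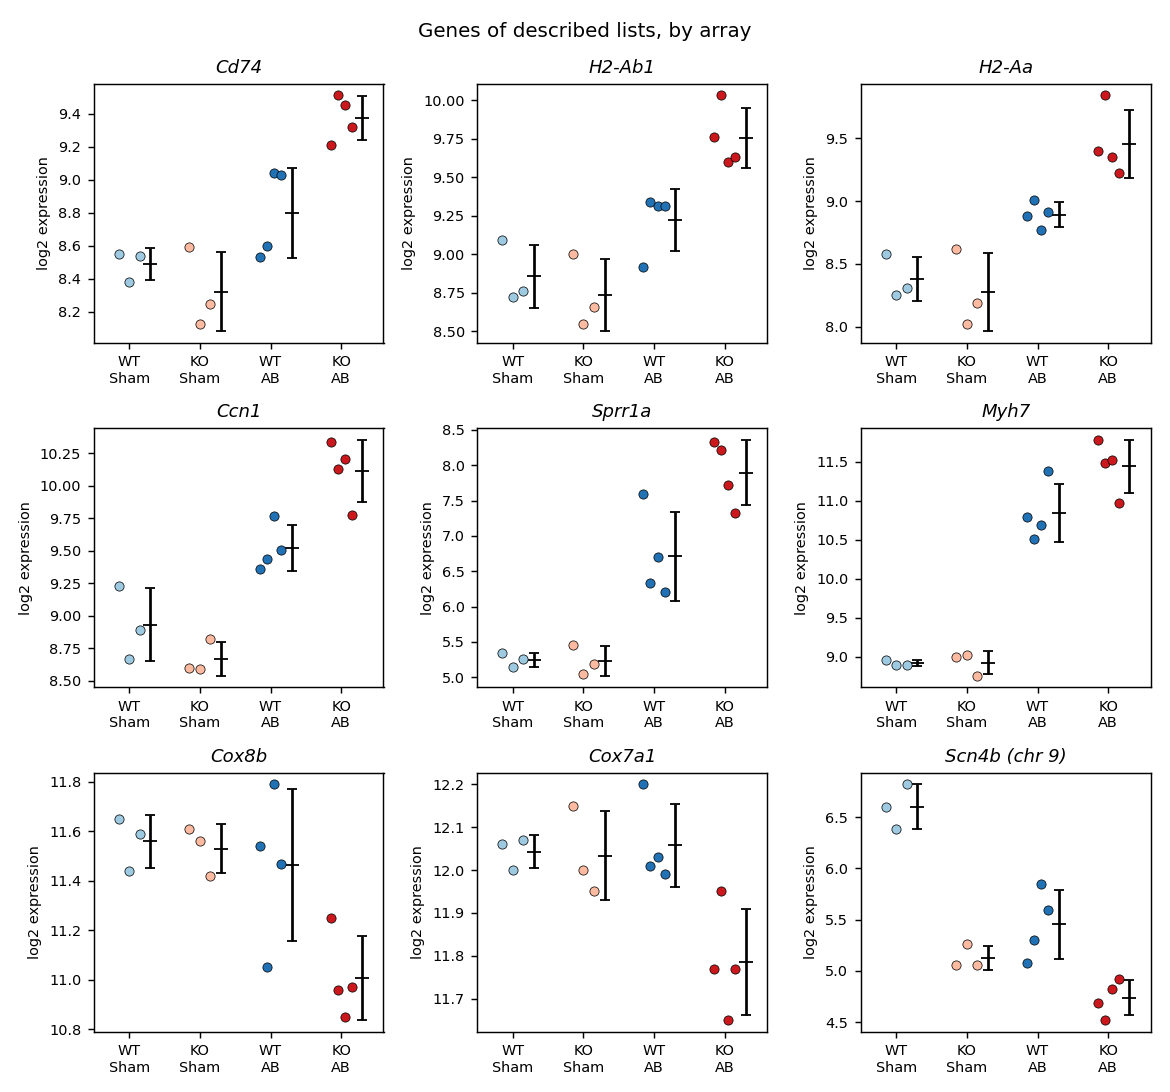
Log2 expression (y axis) of 9 genes from the lists by group (x axis, KO for the CXCR5-/- label). Each point is an array, and bars give the mean and SD of a group (3 Sham or 4 AB arrays). Cd74, H2-Ab1, H2-Aa and Ccn1 do not overlap between the AB groups, Sprr1a and Myh7 do, and none of the 9 passed after AB. Scn4b passed by limma after Sham (adjusted p = 0.000557).

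Of 32 matricellular and fibrosis genes, 26 were above 0 (81.2%), with a median of 0.160, and 10 were higher and 1 lower at an unadjusted p under 0.05. The median difference of matricellular and fibrosis genes rested on single arrays, at 0.059 without WT AB replicate 2, 0.246 without WT AB replicate 4 and 0.241 without CXCR5-/- AB replicate 4. Ccn1, a matricellular protein induced by stretch, lay at 10.34, 10.13, 10.21 and 9.78 with the CXCR5-/- label and at 9.36, 9.44, 9.77 and 9.51 in WT after AB. Its lowest labelled array was just above the highest WT array (0.60, SE 0.13, adjusted p = 0.15). Ccn5, a member of the same family, was at 8.63 to 8.72 and 8.09 to 8.52 (0.39, SE 0.09, adjusted p = 0.163), and Mfap4, a microfibril protein gene, at 8.43 to 8.85 and 7.96 to 8.32 (0.48, SE 0.13, adjusted p = 0.296). Ccn2, connective tissue growth factor, overlapped at 10.83 to 11.61 and 10.62 to 11.03 (0.47, SE 0.15, adjusted p = 0.475). Lox, the collagen cross-linking enzyme, and Eln, elastin, both chosen after their values were seen, differed by 0.72 (SE 0.24) and 0.48 (SE 0.17). Postn and Tnc, matrix genes of activated fibroblasts chosen in the same way, differed by 0.20 (SE 0.12) and -0.11 (SE 0.14).

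The 20 fibroblast markers had a median of 0.155, with 16 above 0, and their summed level was 13.99 to 14.26 with the CXCR5-/- label and 13.79 to 14.28 in WT after AB. The median difference of fibroblast markers was 0.055 without WT AB replicate 2 and 0.101 without CXCR5-/- AB replicate 3. Dpep1 was the marker with the smallest p, at 7.68 to 8.02 and 7.25 to 7.53 (0.43, SE 0.11, adjusted p = 0.228), and Scara5 was lower, at 5.60 to 5.78 and 5.79 to 5.93 (-0.19, SE 0.08, adjusted p = 0.779). The part of fibroblast content in the matrix genes was not tested.

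Small leucine-rich proteoglycans (SLRPs), which bind collagen and shape its fibrils, had a median of 0.118, with 12 of 16 above 0. Omd, osteomodulin (0.37, SE 0.14, unadjusted p = 0.0181), and Ogn, osteoglycin (0.20, SE 0.09, unadjusted p = 0.0498), were higher at an unadjusted p under 0.05, with overlapping groups, and none was lower. Dcn, decorin, lay at 12.05, 11.91, 12.18 and 12.25 with the CXCR5-/- label and at 11.51, 11.79, 11.99 and 12.17 in WT after AB. These values overlapped (0.23, SE 0.12, adjusted p = 0.856). Lum, lumican, was at 9.14 to 9.61 and 9.05 to 9.33 (0.10, SE 0.16), Bgn, biglycan, at 10.66 to 11.18 and 10.24 to 11.20 (0.26, SE 0.16) and Fmod, fibromodulin, differed by 0.15 (SE 0.21). All 3 overlapped, and with standard errors of this size, differences no larger than those printed could not be told from 0.

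Collagen genes differed little. None of 11 fibrillar collagens reached an unadjusted p under 0.05 (median -0.031). Col3a1 lay at 9.54 to 9.93 and 9.12 to 9.99 (0.18, SE 0.15) and Col1a2 at 9.45 to 9.97 and 8.97 to 10.05 (0.24, SE 0.18), with WT AB replicate 4 the highest of the 8 arrays for both. Of 32 other collagens, Col8a1 was higher at an unadjusted p under 0.05, at 9.49 to 9.71 and 9.02 to 9.71 (0.35, SE 0.13, adjusted p = 0.619), and the list median was 0.038. Matrix metalloproteinases and their inhibitors had a median of 0.041 over 22 genes. Mmp13, a collagenase gene on chromosome 9, was at 4.81 to 5.01 and 5.01 to 5.20 (-0.20, SE 0.08, unadjusted p = 0.0312), with the same difference of -0.20 after Sham. Timp4, a cardiac inhibitor of these enzymes, was at 8.07 to 8.42 with the CXCR5-/- label and split in WT, at 8.57, 8.65, 6.79 and 6.32 (0.66, SE 0.38).

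Hypertrophy markers had a median of 0.103 over 18 genes, and 12 were above 0. At an unadjusted p under 0.05, 3 were higher and 1 lower, the latter Mybpc2 (-0.28, SE 0.13, adjusted p = 0.823). Fhl1, a LIM domain protein of the sarcomere, lay at 10.24, 9.97, 10.34 and 10.11 with the CXCR5-/- label and at 9.27, 9.40, 9.42 and 9.95 in WT after AB. The groups did not overlap, with WT AB replicate 4 nearest to the labelled hearts (0.66, SE 0.14, adjusted p = 0.15), and without that array the adjusted p of Fhl1 was 0.0292. Myh7, the fetal myosin heavy chain, was at 11.78, 11.49, 11.53 and 10.97 against 10.80, 10.51, 10.69 and 11.38, with 1 array of each group inside the range of the other (0.60, SE 0.17, adjusted p = 0.349). Nppa, atrial natriuretic peptide, was at 12.72 to 12.92 and 12.67 to 12.92 (0.09, SE 0.12), and Nppb, brain natriuretic peptide, at 10.93 to 11.81 and 11.30 to 11.71 (-0.05, SE 0.19). After Sham, Fhl1 and Myh7 differed by 0.12 and 0.01, and Nppa and Nppb by 0.47 (SE 0.14, unadjusted p = 0.0038) and -0.42 (SE 0.22). None of these Sham differences passed (adjusted p = 0.9999 for each). The atrial gene Myl7 differed by 1.13 (SE 0.70) after Sham, and the part of atrial tissue in the Sham value of Nppa was not tested.

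Of 34 genes of oxidative phosphorylation, 32 were below 0, with a median of -0.101, and 4 were lower and none higher at an unadjusted p under 0.05. The median difference of oxidative phosphorylation ran from -0.054 without CXCR5-/- AB replicate 3 to -0.201 without WT AB replicate 4, and was -0.155 and -0.159 without CXCR5-/- AB replicate 1 or 2. Cox8b, a muscle subunit of cytochrome oxidase, lay at 11.25, 10.96, 10.85 and 10.97 with the CXCR5-/- label and at 11.54, 11.05, 11.79 and 11.47 in WT after AB (-0.46, SE 0.13, adjusted p = 0.356). The groups overlapped at WT AB replicate 2. Cox7a1, another such subunit, was at 11.65 to 11.95 and 11.99 to 12.20, without overlap (-0.27, SE 0.08, adjusted p = 0.471), and the others were Sdhd and Ndufb8. Of 29 genes of fatty acid oxidation, 24 were below 0 (median -0.100), and 6 were lower and none higher at an unadjusted p under 0.05. The median difference of fatty acid oxidation was -0.036 without WT AB replicate 2 and -0.065 without WT AB replicate 3. Hadh, which encodes a dehydrogenase of the pathway, was at 10.97 to 11.15 and 11.21 to 11.38 (-0.24, SE 0.08, adjusted p = 0.496), and Eci1, an isomerase gene, at 9.72 to 9.99 and 9.85 to 10.30 (-0.28, SE 0.10, adjusted p = 0.655). The 16 ventricular cardiomyocyte markers summed to 16.06 to 16.18 with the CXCR5-/- label and 16.13 to 16.18 in WT (median -0.020), and their part in these values was not tested.

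Genes of the CXCL13 axis and of lymphocytes varied between single hearts. Cxcl13, the ligand of CXCR5, was at 7.10, 9.45, 5.72 and 4.92 with the CXCR5-/- label and at 7.42, 4.32, 6.44 and 6.68 in WT after AB. The ranges overlapped over most of their length (0.58, SE 0.72, adjusted p = 0.9992). The 11 measured genes of the homeostatic chemokine axis had a median of 0.121, and Cxcr5 was the only one at an unadjusted p under 0.05. The median difference of homeostatic chemokine axis genes was 0.061 without WT AB replicate 2 and 0.068 without CXCR5-/- AB replicate 2. Cxcl12, a ligand of CXCR4, lay at 8.01 to 8.21 and 8.21 to 8.36, so that the groups met at 8.21 (-0.17, SE 0.08). T cell markers had the lowest median of the lists, -0.110 over 13 genes with 1 above 0, but the median difference of T cell markers was -0.023 without WT AB replicate 3 and -0.065 without CXCR5-/- AB replicate 1. Cd247 lay at 4.85 to 4.89 and 4.98 to 5.49 (-0.26, SE 0.11, unadjusted p = 0.0301), and Cd28 at 4.41 to 4.79 and 4.76 to 5.12 (-0.29, SE 0.13, unadjusted p = 0.0373). WT AB replicate 3 was the highest array for Cd3g (5.85) and Cd8b1 (6.19). All these T cell values are low for this array, and 4 of the 13 genes lie on chromosome 9. Of 12 B cell markers none reached an unadjusted p under 0.05, and the median difference of B cell markers ran from -0.161 without WT AB replicate 1 to -0.011 without WT AB replicate 4, with -0.148 without WT AB replicate 2.

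Inflammatory chemokines and receptors went both ways, with 5 of 29 higher and 5 lower at an unadjusted p under 0.05 (median 0.036). Ccl12 and Ccl7, ligands of the monocyte receptor CCR2, lay at 5.15 to 5.70 and 5.67 to 6.44 (-0.60, SE 0.20, adjusted p = 0.497) and at 5.02 to 5.33 and 5.24 to 5.80 (-0.38, SE 0.12, adjusted p = 0.496). Ccl24, an eosinophil attractant, was at 4.47 to 4.74 and 4.86 to 4.99, without overlap (-0.32, SE 0.10, adjusted p = 0.422), and -0.28 after Sham. Cxcl10, an interferon-induced chemokine, was at 6.09 to 6.88 and 5.93 to 6.19 (0.37, SE 0.15, adjusted p = 0.737) and turned to -0.54 after Sham. Interferon response genes had a median of 0.111, with 18 of 23 above 0 and Irf7 at an unadjusted p under 0.05 (0.20, SE 0.09).

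Ion channel and calcium handling genes had a median of 0.001 over 25 genes. Apart from Scn4b, the potassium channel genes Kcnd3 (5.68 to 6.04 and 6.08 to 6.28, difference -0.34, SE 0.10) and Kcnd2 (5.66 to 6.56 and 6.24 to 6.65, difference -0.47, SE 0.18), which carry the transient outward current, were lower at an unadjusted p under 0.05. Gja5, the gap junction gene of the conduction system and arteries, was higher, at 6.76 to 6.86 and 6.19 to 6.73 (0.33, SE 0.10, adjusted p = 0.463). Kcnd3 and Gja5 did not overlap between groups. After Sham, Kcnd3, Kcnd2 and Gja5 differed by -0.21, -0.43 and 0.09. None of these genes passed.

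Apoptosis genes had a median of 0.083 over 27 genes, with 3 higher and none lower at an unadjusted p under 0.05. Bcl2l1, which encodes the survival protein Bcl-xL, lay at 8.55, 8.27, 8.82 and 8.12 with the CXCR5-/- label and at 8.05, 7.94, 7.59 and 7.56 in WT after AB, without overlap (0.66, SE 0.19, adjusted p = 0.356). Casp12, a caspase gene on chromosome 9, was at 7.39 to 7.65 and 7.01 to 7.26, also without overlap (0.34, SE 0.10, adjusted p = 0.455), and Bcl2 differed by 0.30 (SE 0.11). Cell division genes had a median of 0.115, with 24 of 27 above 0 and 5 higher at an unadjusted p under 0.05, among them the replication licensing genes Mcm3 (0.34, SE 0.10) and Mcm6 (0.20, SE 0.08) and the spindle gene Tpx2 (0.26, SE 0.10). The median difference of cell division genes was 0.057 without WT AB replicate 4, 0.182 without WT AB replicate 1 and 0.188 without CXCR5-/- AB replicate 4. Of 25 genes of the ERK1/2 pathway and its targets, 17 were above 0 (median 0.036), and 3 were higher and 1 lower at an unadjusted p under 0.05. Etv5 and Etv1, transcription factors induced by ERK, differed by 0.28 (SE 0.11) and 0.28 (SE 0.12), Spry1, a feedback inhibitor, by 0.25 (SE 0.10) and Junb by -0.22 (SE 0.10). None of these passed.

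The 16 endothelial markers had a median of 0.048, and Egfl7 (8.69 to 8.93 and 9.03 to 9.28, difference -0.30, SE 0.10) and Sox18 (7.57 to 8.10 and 8.11 to 8.22, difference -0.33, SE 0.14) were lower at an unadjusted p under 0.05 without overlap. Egfl7 and Sox18 differed by -0.25 and 0.05 after Sham. The 12 smooth muscle and pericyte markers had a median of -0.037, and Mcam, on chromosome 9, was lower after both operations (-0.36 and -0.42). The 9 epicardial, nerve and lymphatic markers had a median of 0.070, with Pdpn, of lymphatic endothelium, at 7.27 to 7.85 and 6.89 to 7.40 (0.38, SE 0.13). The 6 erythroid and blood plasma genes (median 0.239), 10 atrial markers (0.119) and 7 adipocyte markers (0.028) had no gene that passed, and their summed levels overlapped between the AB groups (8.56 to 10.72 with the CXCR5-/- label and 8.79 to 9.50 in WT for the erythroid and plasma genes). Of 4 genes that can differ between C57BL/6 substrains, 2 were above 0, with Nnt at 10.34 to 10.90 and 10.23 to 11.04 (0.04, SE 0.15) and Mmrn1 at 5.86 to 6.23 and 5.60 to 6.03 (0.27, SE 0.12, unadjusted p = 0.0438).

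Whether the genotypes differed more after AB than after Sham was tested for each gene. None passed by limma (smallest adjusted p = 0.804). At an unadjusted p under 0.05 there were 574 genes (2.88%), a smaller share than that threshold gives by chance. The genes below were named for their AB difference, which is part of this comparison, so unequal changes partly follow from that choice. The changes from Sham to AB were, in WT and in hearts labelled CXCR5-/-, 0.59 and 1.44 for Ccn1, 0.31 and 1.05 for Cd74, 0.15 and 0.90 for Edn1, 1.46 and 2.66 for Sprr1a, and 0.48 and -0.11 for Angptl1. For Scn4b they were -1.15 and -0.39, from a Sham level of 6.38 to 6.82 in WT and 5.06 to 5.26 with the CXCR5-/- label. The WT AB hearts, at 5.08 to 5.85, were below all WT Sham hearts for Scn4b and overlapped the Sham hearts with the CXCR5-/- label.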

How the data were processed

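Left ventricular RNA of 14 mice was hybridised to Affymetrix mouse ST 1.0 arrays, 1 per mouse. The deposited values are log2 expression per probe set, which the authors computed with robust multi-array average, and they were not normalized again. No source used here names the settings or the build of the array annotation. Arrays have no read depth, and their number limits the precision. Of 34760 probe sets, 21640 had 1 symbol, 1321 several and 11799 none in the table used, and 21553 of the first were found in RefSeq's table for GRCm38.p6, the source of chromosomes and gene order. For 954 of 19937 genes, several probe sets existed and the one with the highest mean over 14 arrays stood for the gene.

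Groups were taken from the sample labels. With lmFit and eBayes of limma 3.58.1 (R 4.3.3), 4 group means were fitted to all 14 arrays together, with 10 residual and 7.13 prior degrees of freedom. Contrasts were CXCR5-/- minus WT after AB, the same after Sham, and their difference. Adjusted p is limma's with the Benjamini-Hochberg adjustment over 19937 genes, with a threshold of 0.05. The steps were tested on simulated data. Same-numbered AB arrays deviated together from their group means (r = 0.125, 0.22, 0.157 and 0.185), although only CXCR5-/- AB replicate 1 correlated best with the WT array of its own number (replicates 2, 3 and 4 with WT replicates 1, 4 and 3), so blocked values are given where they change a call. The titles number the replicates and do not say what a number shares. No pair of arrays had more than 47 identical values.

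Named genes were those that passed, the 15 next by p, the 5 largest and 5 smallest differences without overlap, genes the study names, the leading genes of each list and the 10 measured genes on either side of Cxcr5. The rule left out predicted genes, odorant and pheromone receptors and small RNAs, and genes outside it (Hspa8, Ciita, H2-DMa, Lox, Eln, Postn, Tnc, Ptprc, Myl7, Depp1, Cd3d, Cd3e, Sorl1 and Mto1, and some list genes such as Tnni3, Alb, Col3a1 and Casp12) were chosen after their values were seen. The members and lists were chosen with earlier results of these data known. A summed level is the log2 of the sum of a list's linear values. Promoters came from RefSeq (GRCm38.p6). Alternatives were the AB arrays alone, replicate blocks, array weights, a trend with robust variances, a filter on dim probe sets, other normalizations, other choices of probe set, significance analysis of microarrays with 70 permutations, and each array left out in turn.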

Additional observations from a re-analysis of the deposited data

Results flagged for a closer look

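Among 322 groups of 4 AB arrays of named genes, 14 held an array whose gap to the other 3 was large against the range of the 4. That is no more than chance gives, which is about 1 in 20. The rule weighs a gap against the spread, so some of these gaps are small (Ube4a at 7.37 beside 7.36). In genes that carry a result above, Stk17b was at 7.71 on WT AB replicate 3 and at 7.35 to 7.41 on the others, Edn1 at 6.58 on CXCR5-/- AB replicate 4 (others 7.20 to 7.31), Ccn5 at 8.63 on CXCR5-/- AB replicate 1 (others 8.71 to 8.72) and H2-Ab1 at 8.92 on WT AB replicate 1 (others 9.31 to 9.34). CXCR5-/- AB replicate 4 was also apart in the atrial genes Bmp10, at 6.78 (others 3.17 to 3.29), and Kcnj3, at 6.84 (others 6.05 to 6.18), and in the mesothelial gene Msln, at 5.01 (others 5.91 to 6.06). Egfl7 was at 8.69 on CXCR5-/- AB replicate 2 (others 8.91 to 8.93), and the red cell gene Slc4a1 at 6.11 on the same array (others 5.46 to 5.51) and at 5.81 on WT AB replicate 1 (others 5.45 to 5.51). Cd8b1 was at 6.19 on WT AB replicate 3 (others 4.49 to 4.64), S100a8 at 3.73 on WT AB replicate 2 (others 4.18 to 4.26), Rrm2 at 5.64 on WT AB replicate 1 (others 5.28 to 5.33) and Ube4a at 7.37 on CXCR5-/- AB replicate 3 (others 7.36).

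Probe sets outside the comparison of genes also differed. In a fit of all 34760 probe sets 10 passed, 5 with a single symbol and 5 without, and the latter are unnamed here. The difference between labelled CXCR5-/- AB and WT AB hearts was -1.60 for probe set 10584572 of Hspa8 (after Sham -1.48), -1.70 for 10418205 (after Sham -1.25), -1.44 for 10418193 (-0.92), 0.58 for 10395805 (0.34), 0.54 for 10395780 (0.34) and -1.21 for 10339886, which was 0.21 after Sham and dim on every array.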

How the results depend on the processing

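The counts were small, so single genes moved them. Beside 5 higher and 4 lower, 7 on chromosome 9 and 2 elsewhere, the AB arrays alone gave 3 and 1 (4 and 0), all probe sets fitted together 3 and 1 (4 and 0 among probe sets that stand for genes), and the replicate block over the AB arrays 8 and 2 (5 and 5). With array weights 3 were higher and 0 lay elsewhere. The random replicate block placed 5 elsewhere, quantile normalization 0 and equal array medians 1. Significance analysis of microarrays called 8 higher and 4 elsewhere, and 7 of its 12 genes were among the 9. Averaging the probe sets of a gene added Hspa8. With 1 array left out, 3 to 28 genes were higher and 1 to 6 lower, 4 to 11 on chromosome 9 and 0 to 23 elsewhere, with the upper ends without CXCR5-/- AB replicate 4 and 13 genes in all without WT AB replicate 1. The replicate block changed no call of a named gene other than those given above. No named gene reversed while past the threshold, and every list median moved by less than the spread between arrays. Leaving out 1 array nevertheless moved many medians by over 1.5 times, as given beside them. It turned the sign of those of fibrillar and other collagens, metalloproteinases, inflammatory chemokines, macrophage, pan-leukocyte, endothelial, smooth muscle, atrial, erythroid, adipocyte and epicardial markers, ion channels, and ERK and substrain genes. Weak signal limits the differences of Nxpe4, Cxcr5, Efcab7, Calml4 and the lymphocyte markers. The allele and its flanking DNA differ together, and these arrays cannot separate them.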

Other observations

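The following 3 genes were chosen after their values were seen, from the 34 that passed without CXCR5-/- AB replicate 4, so that their values on the other labelled arrays are how they were selected. Errfi1, a feedback inhibitor of the EGF receptor, lay at 9.36, 9.06, 8.87 and 8.04 with the CXCR5-/- label and at 7.79, 7.44, 8.11 and 8.20 in WT after AB (0.95, SE 0.25, adjusted p = 0.291). Nfkbia, the inhibitor of NF-kappa B, was at 9.53, 9.01, 8.97 and 8.24 against 8.12 to 8.45 (0.65, SE 0.19, adjusted p = 0.433), and Cebpd, a transcription factor of the acute phase, at 6.83, 6.81, 6.30 and 5.38 against 5.36 to 5.77 (0.79, SE 0.26, adjusted p = 0.497). In all 3 genes replicate 4 with the CXCR5-/- label lay within the WT range and the other labelled hearts above it. After Sham they differed by 0.05, 0.11 and 0.09.

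A pair of cytokine-related genes of chromosome 9, also chosen after their values were seen but not from those 34, did not overlap after AB. Il18, the cytokine interleukin 18, lay at 3.99, 4.52, 3.95 and 4.08 with the CXCR5-/- label and at 3.88, 3.52, 3.39 and 3.30 in WT (0.61, SE 0.14, adjusted p = 0.15), dim in both groups. Its Sham difference was 0.29. Il10ra, a chain of the interleukin 10 receptor 21 places after Cxcr5, lay at 5.74 to 6.06 and 5.44 to 5.66 (0.34, SE 0.09, adjusted p = 0.296), and -0.15 after Sham. Arhgap11a (5.77 to 6.15 and 5.25 to 5.52), Inka2 (5.76 to 5.96 and 6.25 to 6.52) and Lncpint (8.43 to 8.84 and 7.98 to 8.10), all off chromosome 9, were called by significance analysis of microarrays and not by limma (adjusted p = 0.15, 0.143 and 0.32).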
